A study of Homo sapiens with 33 samples.

Results

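The RNA-seq libraries of H28 and H2452 were compared with those of H2052 and MSTO-211H, all 4 of them established lines of malignant pleural mesothelioma (MPM), after culture with the solvent DMSO alone. These are 11 of the 33 libraries of the series, 3 each of H28, H2452 and MSTO-211H and 2 of H2052. The study's cell line table lists a BAP1 missense mutation in H2452, a BAP1 exon deletion in H28 and wild-type BAP1 in H2052 and MSTO-211H. From 58302 genes, 16288 were tested, namely those that reached 100 counts per 20000000 reads (CP20M) in 1 or more of these libraries. A separating gene was one with every library of H28 and H2452 beyond every library of H2052 and MSTO-211H, a gap of at least 1 on the log2 scale between the nearest line means (a fold of 2), and a call by limma. There were 988 such genes, 250 higher and 738 lower in H28 and H2452.

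The study asked how MPM lines respond to palbociclib, an inhibitor of the cell cycle kinases CDK4 and CDK6, and it grew the DMSO controls for 9 or 10 days beside the treated cells. All 4 lines are sensitive to palbociclib and are listed with a deletion of CDKN2A, which encodes p16. BAP1 is not the only gene whose listed status follows this division of the lines. LATS2, a kinase of the Hippo pathway, is listed as altered in H2052 and MSTO-211H and as wild type in H28 and H2452. H2052 also carries a listed NF2 mutation. H28 and H2052 are listed as sarcomatoid, H2452 and MSTO-211H as biphasic, so histology does not follow the division. With 2 lines on a side, the line, BAP1 status and LATS2 status cannot be told apart, and the smallest two-sided p that exact permutation of the 4 line means allows is 0.333. The limma p-values measure the spread between libraries of a line and speak of these 4 lines.

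BAP1 is a deubiquitinase of the nucleus. With ASXL proteins it forms the PR-DUB complex, which removes ubiquitin from histone H2A and so acts against the mark placed by Polycomb repressive complex 1, and it also binds HCFC1 and OGT. Polycomb complexes keep developmental genes such as the HOX clusters silent, and BAP1 is among the genes most often inactivated in MPM.

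The RNA of BAP1 itself did not divide the lines. BAP1 (ENSG00000163930, chromosome 3 from 52401008 to 52410008 of GRCh38) was at 2420, 2119 and 2290 CP20M in the H28 libraries and at 1307, 1145 and 1353 in those of H2452. It was at 2157 and 2049 CP20M in H2052 and at 2014, 1669 and 2021 in MSTO-211H. H2452 was thus the lowest line and H28 overlapped with H2052. The difference of H28 and H2452 from the other lines was -0.23 ± 0.08 (SE) on the log2(CP20M + 10) scale, which is used for all differences here, and it stayed under the fold of 1.5 that a call needs. The RNA level does not show whether a functional protein was made. Of the 11 tested genes of the PR-DUB list only MBD5 was called, higher by 1.11, and none was separating. The partners of BAP1 had differences of -0.18 for ASXL1, -0.05 for ASXL2 and 0.36 for HCFC1, none of them called. Among 12 tested neighbours on 3p21, which include BAP1 itself, 2 were called lower and none was separating. Over all tested genes, 19.3% were called higher and 25.3% lower, and 1.53% and 4.53% were separating in these directions.

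The checks of the other listed alterations gave the following levels. LATS2 (ENSG00000150457) was listed at 0 in both H2052 libraries. It was at 1401, 1335 and 1309 CP20M in MSTO-211H, at 2270, 2690 and 1876 in H28 and at 3642, 2763 and 3847 in H2452. No library of the sides overlapped, but the gap of 0.74 between H28 and MSTO-211H was under 1. NF2 was at 407 and 305 CP20M in H2052, below the 4022 to 4715 of MSTO-211H, the 5738 to 7190 of H2452 and the 13067 to 16708 of H28.

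Across all 16288 genes, limma called 3146 genes (19.3%) higher and 4127 (25.3%) lower in H28 and H2452, at a false discovery rate (FDR) under 0.05 and a fold over 1.5. Calls were therefore common, and the median difference of all genes was -0.03. In 36.3% of genes both line means of one side lay beyond both of the other. Separating genes were rarer, 1.53% of the tested genes in the higher direction and 4.53% in the lower direction. A gap of at least 3 was found in 25 genes higher and 119 lower in H28 and H2452. Protein-coding genes made up 75.2% of the higher and 80.9% of the lower separating genes, against 81.2% of all tested genes. Genes at the limit were FGFR1OP and DHX57 just inside a gap of 1, and CNPY3 and GBP4 just outside it.

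Among the genes higher in H28 and H2452, RARRES2 had the widest gap between the nearest line means. RARRES2 (ENSG00000106538, chromosome 7 from 150338317 to 150341662) encodes chemerin, a secreted chemoattractant. It was at 7364, 9750 and 9990 CP20M in H28 and at 5336, 6741 and 5282 in H2452, against 4 and 3 in H2052 and 36, 14 and 11 in MSTO-211H. The sides differed by 8.52 ± 0.19 (SE) with a gap of 7.66. ABCC3, an exporter of organic anions, came next with a gap of 7.06. Its libraries lay between 4229 and 10594 CP20M in H28 and H2452 and between 10 and 36 in the other lines.

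Others of the 12 protein-coding genes with the widest gaps were uneven within the higher side. ID4, an inhibitor of basic helix-loop-helix factors, was at 2907, 3044 and 3043 CP20M in H28 and at 298, 567 and 101 in H2452. It was listed at 0 in every library of H2052 and MSTO-211H, so no fold is given. NRCAM, a neuronal adhesion molecule, had line means of 10610 CP20M in H28 and 612 in H2452, against 27.0 or less in the other lines. COL7A1, the collagen of anchoring fibrils, had 31210 and 2974 CP20M against 124.5 in H2052 and 219 in MSTO-211H. CYP4F11 went the other way within the side, with line means of 333 CP20M in H28 and 1615 in H2452. The rest were AKR1B10, PLAA, GAL3ST1, HKDC1, LONRF3 and ACTR3C, with gaps from 3.76 to 5.44.

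The gene with the widest protein-coding gap in the other direction was ESM1 (ENSG00000164283, chromosome 5 from 54977867 to 55022671), which encodes the secreted proteoglycan endocan. It was at 0, 0 and 4 CP20M in H28 and at 0, 3 and 5 in H2452. The H2052 libraries had 2053 and 2016 CP20M and those of MSTO-211H 1053, 2440 and 8297. The difference was -7.66 ± 0.42 (SE), on a scale that understates folds of genes so low on one side. FST, whose product follistatin binds activin, had at most 5 CP20M in any library of H28 and H2452 and 1597 to 5814 in the others. INHBA, which encodes an activin subunit and was named after its values were seen, was also a separating gene, with a gap of 2.61.

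Among the remaining lower genes with the widest gaps, SFRP1, a secreted WNT antagonist, was at 35, 19 and 48 CP20M in H28 and at 9, 6 and 22 in H2452, against 4661 and 3980 in H2052 and 1919, 2707 and 5750 in MSTO-211H. DSC3, a desmosomal cadherin, did not exceed 2 CP20M in H28 and H2452 and lay between 1003 and 1182 in the other lines. IGF2BP1, an RNA-binding protein of the fetal period, did not exceed 9 CP20M in H28 and was listed at 0 in all 3 libraries of H2452, against 1021 to 1435 in the others. MME, the membrane peptidase also known as CD10, was uneven in H2452, with 270, 26 and 1257 CP20M, but remained below the lowest value of 7958 in the other lines. The other 6 were ADAMTSL1, MYPN, PLAC8, NFATC4, TMPRSS15 and FMN2, with gaps from 5.12 to 6.79.

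**Figure D1:**
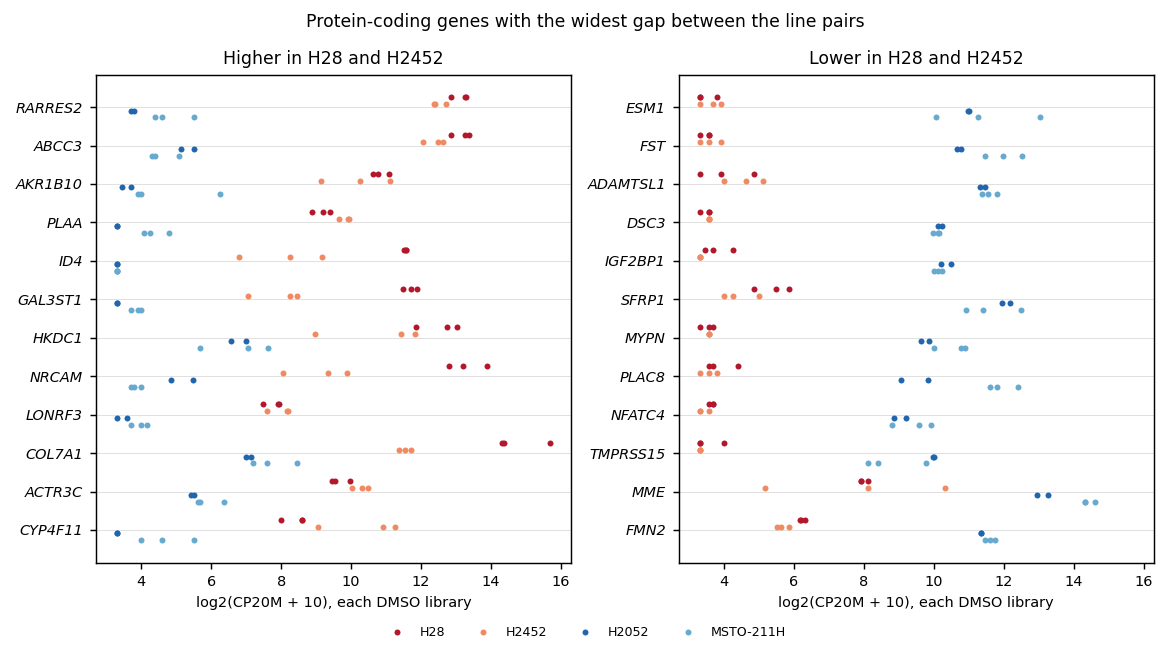
Each point is 1 DMSO library, on a log2(CP20M + 10) axis, for the 12 protein-coding genes with the widest gap in each direction, coloured by line. The red points of H28 and H2452 lie apart from the blue points of H2052 and MSTO-211H for each gene, by a gap of 7.66 for RARRES2 and 7.35 for ESM1.

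The 250 bases before the start of 3 of these genes are shown because RARRES2, ESM1 and FST had the widest gaps on their sides that the sequence table holds. Sequences are from RefSeq on GRCh38.p14, written 5′ to 3′ on the strand of the gene, with the dinucleotide CG in capitals. RARRES2 is at chr7:150341630-150341879 on the minus strand, ESM1 at chr5:54985594-54985843 on the minus strand and FST at chr5:53480379-53480628 on the plus strand.
RARRES2: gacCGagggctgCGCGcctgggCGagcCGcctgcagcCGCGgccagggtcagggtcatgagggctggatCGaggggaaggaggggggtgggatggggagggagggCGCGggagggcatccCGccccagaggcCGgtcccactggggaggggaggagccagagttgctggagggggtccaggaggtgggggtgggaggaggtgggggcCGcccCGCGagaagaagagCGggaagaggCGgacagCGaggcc
ESM1: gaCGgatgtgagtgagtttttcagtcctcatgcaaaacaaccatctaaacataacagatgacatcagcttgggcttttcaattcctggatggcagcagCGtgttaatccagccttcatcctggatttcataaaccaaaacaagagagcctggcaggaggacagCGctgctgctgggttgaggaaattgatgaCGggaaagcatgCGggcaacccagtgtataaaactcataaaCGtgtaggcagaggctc
FST: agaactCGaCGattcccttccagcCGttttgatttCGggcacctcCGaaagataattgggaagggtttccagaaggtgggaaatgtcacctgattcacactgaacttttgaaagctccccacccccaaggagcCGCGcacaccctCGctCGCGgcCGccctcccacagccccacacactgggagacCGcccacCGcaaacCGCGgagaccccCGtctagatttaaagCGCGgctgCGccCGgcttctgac
They hold 18, 6 and 20 CG dinucleotides, and 36.8%, 61.9% and 32.4% of all 35116 starts in the table hold at least as many. The median was 15 CG over the 261 starts of higher separating genes and 16 over the 704 starts of lower ones. It was 20 over 14575 starts of the other tested genes and 11 over all 35116 starts. The separating genes thus lay between these backgrounds. By symbol, 163 of 250 higher and 450 of 737 lower separating genes were matched. Methylation was not measured, and CG counts here describe the sequence only.

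HOX genes, which encode the transcription factors of the body axis, were mostly called lower in H28 and H2452. Of 39 genes in the HOX clusters, 24 reached 100 CP20M in some library, 22 of them were called lower and none higher, and 12 were separating. The median difference of the 24 was -2.89, and the line means of the sides separated for 15 of them, all lower. Of all 16288 genes, 25.3% were called lower, 19.6% had separate line means in that direction and 4.53% were separating. The minimum favours this direction, as 14 of the 24 passed it only through libraries of H2052 or MSTO-211H and 1 only through those of H28 or H2452. Without the minimum, 38 HOX genes entered the fit, of which 28 were called lower and none higher, where 12.9% of all 42401 genes were called lower.

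HOXB6 was the separating HOX gene with the widest gap. It was at 32, 50 and 44 CP20M in H28 and at 0, 2 and 0 in H2452, against 1017 and 1092 in H2052 and 800, 364 and 740 in MSTO-211H. HOXB3 was low but present on both lines of the lower side, with 121 to 288 CP20M in H28 and 285 to 322 in H2452, against 1397 to 3223 in the other lines. HOXC8 was at 21, 22 and 32 CP20M in H28 and listed at 0 in H2452, against 246 and 263 in H2052 and 658, 716 and 659 in MSTO-211H.

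H28 and H2452 differed from each other in the extent. All 9 genes of the HOXD cluster were listed at 0 in every H2452 library, and the HOXC sum was 7 to 9 CP20M there, whereas H28 had sums of 318 to 374 in HOXD and 281 to 357 in HOXC. The HOXD sum of H28 was above the 73 and 74 CP20M of H2052, so the HOXD cluster did not divide the lines. The HOXB cluster did, with sums of 1444 to 1764 CP20M in H28 and 942 to 996 in H2452 against 7725 and 8262 in H2052 and 6574 to 10381 in MSTO-211H. HOXC did as well, with 1201 and 1203 CP20M in H2052 and 1965 to 2088 in MSTO-211H. HOXA did not, as its sum was 366 to 580 in H28 and 483 to 688 in H2052. MPP89 and MeT-5A are the other lines listed with wild-type BAP1, and the controls of MeT-5A were 1 DMSO and 1 untreated library. Their HOXB sums were 2707 to 2885 and 3136 to 3485 CP20M, between the sides. The HOXC sums of MPP89, 917 to 984, were also between the sides. Those of MeT-5A, 1818 to 1949, lay within the range of H2052 and MSTO-211H.

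**Figure D2:**
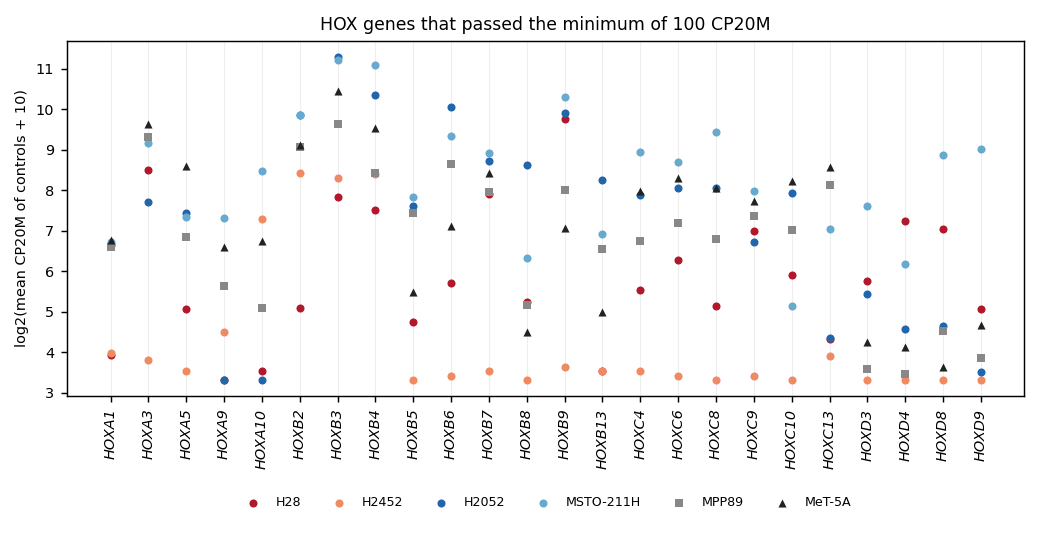
Mean CP20M of the control libraries of each line, on a log2(mean + 10) axis, for the 24 HOX genes that passed the minimum. For MeT-5A these are 1 DMSO and 1 untreated library. H28 and H2452 (red and orange circles) lie below H2052 and MSTO-211H (blue circles) for the HOXB genes such as HOXB6, with a gap of 3.57, but not for HOXD4.

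The enzymes of the Polycomb system showed smaller differences. EZH2, the methyltransferase of Polycomb repressive complex 2, was higher by 1.44 ± 0.17 (SE, limma FDR 1.84e-05), with 1363 to 1526 CP20M in H28, 854 to 969 in H2452, 205 and 349 in H2052 and 499 to 907 in MSTO-211H. H2452 and MSTO-211H overlapped. MTF2, an accessory subunit that guides the complex to DNA, was separating with a gap of 1.05, at 480 CP20M or more in H28 and H2452 and 282 or less elsewhere. Of the 12 genes of this complex, 4 were called higher and 2 lower. Of the 22 genes of Polycomb repressive complex 1, 4 were called higher and 3 lower with none separating. The shares over all genes were 19.3% called higher and 25.3% lower.

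In the Hippo pathway, which restrains the coactivators YAP and TAZ, the 2 coactivators differed. WWTR1, which encodes TAZ, was separating and higher in H28 and H2452. It was at 9589, 8040 and 10252 CP20M in H28 and 3225, 4057 and 3054 in H2452, against 387 and 479 in H2052 and 742, 849 and 795 in MSTO-211H. YAP1 had a difference of -0.11, and its lines interleaved with line means from 2834 CP20M in H28 to 5430 in H2052. FRMD6, an upstream member, and TEAD2, a DNA-binding partner of the coactivators, were separating in the lower direction. FRMD6 was at 113 to 211 CP20M in H28, 1917 to 2482 in H2452 and 7818 to 10202 in the other lines.

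Of 24 genes listed as targets of YAP and TEAD, 13 were called lower and 3 higher, with a median difference of -0.69. Only DLC1, a GTPase-activating protein for RhoA, was separating. It was at 37 to 71 CP20M in H28, 833 to 936 in H2452 and 3850 to 6866 in the other lines. CYR61 was called lower, at -1.60, and ANKRD1 was called higher, at 1.56. LATS2, listed as altered in H2052 and MSTO-211H, was another of the 3 called higher. The listed targets thus leaned lower, beside shares of 25.3% lower and 19.3% higher over all genes, but did not all move one way.

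Mesothelial markers were uneven across the lines, and most did not follow the division. Of the 14 tested, 2 were called higher and 8 lower, with a median of -0.99, where 19.3% and 25.3% of all genes were. The line means of the sides separated for 1 marker in the higher and 3 in the lower direction. MSLN, which encodes mesothelin, had line means of 4.33 CP20M in H28, 1074 in H2452, 4256 in H2052 and 650 in MSTO-211H. The difference of -3.74 was called, but H2452 lay above MSTO-211H. WT1 was low in all lines, from 203 to 549 CP20M, CALB2 (calretinin) did not exceed a line mean of 84.0 and KRT5 was under the minimum of 100 CP20M in every library. The summed level of the 20 mesothelial markers was 11830 to 14670 CP20M in H28, against 45250 to 101400 in the libraries of the other 3 lines. The keratins KRT7, KRT8, KRT18 and KRT19 made up most of these sums, so they mainly describe keratin levels. KRT8 alone had line means of 5770 CP20M in H28 and 29940 or more in the other 3 lines. UPK3B was the marker that was separating in the higher direction, at 61 CP20M or more in H28 and H2452 and 13 or less elsewhere, and GATA4 was separating in the lower direction. The 14 leukocyte and endothelial markers summed to 217 to 267 CP20M in H28, 1327 to 1773 in H2452, 627 to 774 in H2052 and 1004 to 1273 in MSTO-211H. Of these 14, 3 reached the minimum, and the part of such levels in the results was not tested.

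Matrix genes went both ways. Of 15 tested collagens, 5 were called higher and 9 lower, where 19.3% of all genes were called higher and 25.3% lower. Of the collagens, 4 were separating. COL4A1 and COL4A2, a divergent pair of genes for basement membrane collagen, were higher in H28 and H2452. COL4A1 was at 30545, 41714 and 53761 CP20M in H28 and at 10034, 9668 and 9418 in H2452, against 3229 and 2965 in H2052 and 1057, 1118 and 868 in MSTO-211H. COL5A2, a fibrillar collagen, was at 22 to 50 CP20M in H28 and H2452, 2598 and 4277 in H2052 and 736 to 1211 in MSTO-211H. COL4A6, also a basement membrane collagen, was separating in the lower direction, with line means of 1.67 CP20M in H28 and 138 in H2452. Its line means were 306.5 CP20M in H2052 and 723 in MSTO-211H. Among 18 mesenchymal genes, ACTA2 and TWIST2 were separating in the lower direction and S100A4 in the higher direction, while VIM had a difference of 0.23 and was not called.

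Interferon-stimulated genes were spread by line and not by side. H28 was the lowest line for 29 of the 33 genes and H2452 the highest for 27, such as IFIT1 with line means of 2167 CP20M in H2452 and 12.3 in H28. HERC5, an interferon-induced ligase of ISG15, was separating in the lower direction. It was listed at 0 in H28, at 12 to 36 CP20M in H2452 and at 262 or more elsewhere.

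Homologous recombination genes were called higher in 8 of 20 cases and lower in 1, with a median difference of 0.45, where 19.3% of all genes were called higher and 25.3% lower. BRCA2, which acts in the repair of DNA double-strand breaks, was the separating member. It was at 1464, 1075 and 1402 CP20M in H28 and 1332, 1087 and 1456 in H2452, against 829 and 325 in H2052 and 456, 201 and 617 in MSTO-211H. Of the 22 proliferation genes, 10 were called higher, none lower and 12 neither, with a median of 0.53, and none was separating. Their part in the values of the recombination genes was not tested. After palbociclib 7 of the 22 proliferation genes kept their sign, and 17 of the 20 recombination genes did so.

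Of 16 genes of cystine uptake and ferroptosis, which have been linked with BAP1, 5 were called higher, 2 lower and none was separating. The shares over all genes were 19.3% higher and 25.3% lower. Those called higher were GCLC, GCLM, AIFM2, HMOX1 and ALOX5, by 0.88 to 1.89, and those called lower FTL and SLC40A1, all named after their values were seen, like MICU2. HMOX1 had line means of 22750 CP20M in H28 and 876 in H2452, against 2536 in H2052 and 805 in MSTO-211H. ALOX5 was high in H28 alone, with 250 CP20M against 9.5 or less. GCLC was at 830 CP20M in H2452, below the 1250 of MSTO-211H. SLC40A1 was high in H2052 alone, with 174 CP20M against 9.67 or less. Of 11 genes of calcium release and mitochondrial calcium uptake, ITPR3 and MICU2 were called higher and none lower, and none was separating. SLC7A11, the cystine carrier, had line means of 3825 CP20M in H28, 12070 in H2452, 1888 in H2052 and 17250 in MSTO-211H. Its difference of 0.39 ± 0.40 (SE) was within the spread between libraries. ITPR3, the calcium channel that responds to inositol trisphosphate, was called higher by 0.81 and had a gap of 0.18. H28 was high with a mean of 15150 CP20M, while H2452 with 6674 lay next to 5850 in H2052 and 5814 in MSTO-211H.

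**Figure D3:**
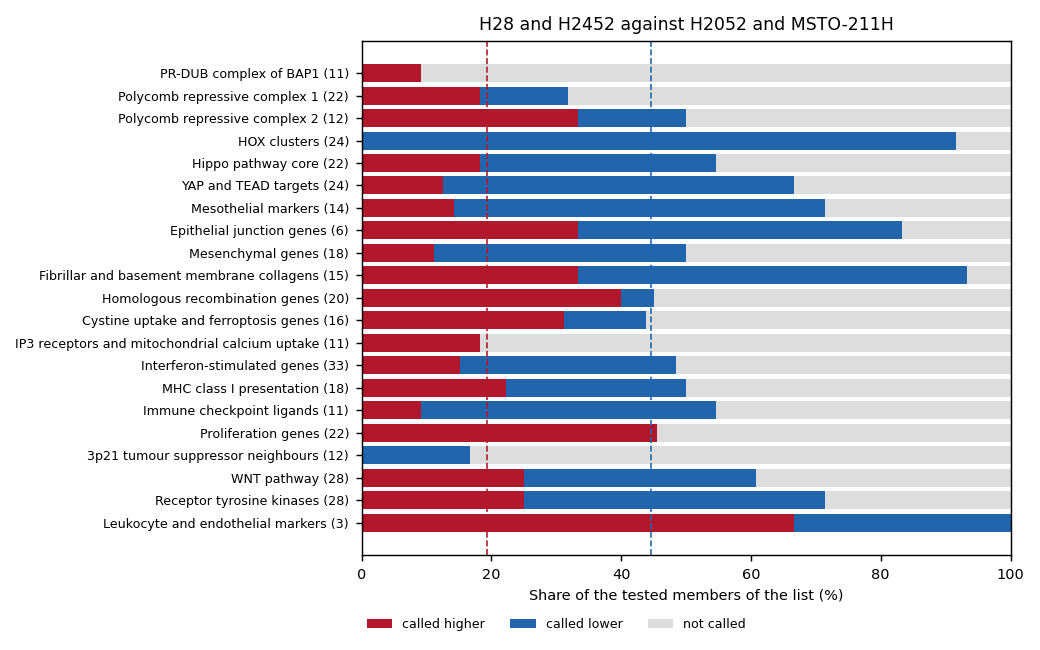
For each gene list, the bars give the share of its tested members (number in brackets) that limma called higher (red), lower (blue) or neither (grey) in H28 and H2452. The dashed lines mark the share over all genes, 19.3% higher and then a further 25.3% lower, and the HOX clusters have the largest blue share.

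Among signalling genes, DKK1, a secreted WNT antagonist, was separating. It was at 0, 0 and 29 CP20M in H28 and at 1707, 759 and 1935 in H2452, against 8558 to 12046 in the other lines. Of 28 tested genes of the WNT list, 7 were called higher and 10 lower, against 19.3% and 25.3% of all genes. The receptor tyrosine kinases KDR, ERBB3 and MERTK were separating in the lower direction, at line means of 16.7 CP20M or less in H28 and H2452 and 61.3 or more in the other lines.

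The next genes and groups were chosen after the values of the separating genes were seen, so their counts describe these genes and support nothing. MDM2, a ubiquitin ligase, was separating in the lower direction. It was at 4049, 4931 and 4839 CP20M in H28 and 1852, 1788 and 2024 in H2452, against 15934 and 13871 in H2052 and 9465, 11020 and 8685 in MSTO-211H. SPATA18, which acts in mitochondrial quality control, did not exceed 3 CP20M in H28 and was listed at 0 in H2452, against 403 and 430 in H2052 and 184 to 220 in MSTO-211H.

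Targets of NRF2, the transcription factor of the response to oxidants, were mostly called higher in H28 and H2452. Of 24 genes, 15 were called higher, 2 lower and 9 were separating, with a median of 1.31. Of all tested genes, 19.3% were called higher, 25.3% lower and 1.53% were separating in the higher direction. AKR1C3, an aldo-keto reductase, was at 3955 to 6384 CP20M in H28 and at 2484 to 5018 in H2452, against 40 and 58 in H2052 and 223 to 492 in MSTO-211H. KEAP1, the inhibitor of NRF2, was itself separating, at 2447 CP20M or more against 1358 or less. NQO1, a classical target, did not separate, since MSTO-211H had 9909 to 14699 CP20M and only H2052 was low. AKR1C1, AKR1C2 and AKR1C3 are similar neighbours on chromosome 10, so reads that they share may have been lost or given to the wrong member, which was not tested.

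**Figure D4:**
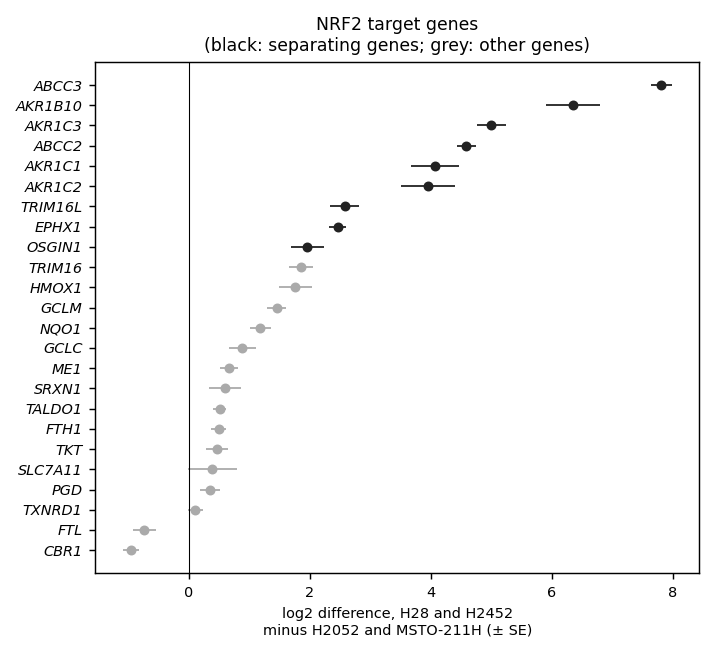
Log2 difference of H28 and H2452 minus H2052 and MSTO-211H with its SE for 24 targets of NRF2, a list written after the values were seen. Separating genes are black, up to ABCC3 at 7.81, and the other genes are grey.

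Blocks of neighbouring genes were found as well. The maternally expressed RNA MEG3 of the imprinted domain on chromosome 14 was at 0, 0 and 67 CP20M in H28 and at 0 in H2452, against 10507 and 6921 in H2052 and 4934, 1879 and 2722 in MSTO-211H. MEG8, MEG9 and RTL1 of the same domain were separating too, and all 4 were chosen after their values were seen. So were the beta protocadherins, adhesion genes in a cluster on chromosome 5, of which 8 of 16 passed the minimum, all 8 were called lower and 6 were separating. Of these 8, 7 passed it through libraries of H2052 or MSTO-211H alone, which favours this direction. By chromosome, lower separating genes were 10.4% of the 556 tested genes on chromosome 8 and 8.49% of the 518 on chromosome 14, with median differences of -0.65 and -0.69 over these chromosomes. Over all tested genes, 25.3% were called lower, 4.53% were lower separating genes and the median difference was -0.03. Copy number was not measured in these files, and its part was not tested.

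Low values in 1 library touch the genes near 0. Of the 738 lower separating genes, 72 were listed at 0 in H28 replicates 1 and 2, and 48 of these were above 0 in replicate 3, with a median of 2 CP20M and a highest value of 67. In the other libraries of H28 and H2452 the same count was 2 to 11. Without H28 replicate 3 the separating genes were 255 higher and 728 lower.

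The division was then read in the 11 libraries of the same lines after 9 or 10 days in 1 µM palbociclib, which had no part in choosing the genes but come from the same lines and experiments. Over all tested genes, limma called 22.6% higher and 23.5% lower in H28 and H2452 after the drug. Of the 250 separating genes higher in DMSO, 243 were called higher after palbociclib and 196 had no overlap of libraries. Of the 738 lower ones, 731 were called lower and 654 had no overlap. Over all tested genes, 8.17% had no overlap in the higher and 10.3% in the lower direction after the drug. Among genes that already had no overlap in DMSO, which include the separating genes, the shares were 60.7% and 66.7%. Among the separating genes they were 78.4% and 88.6%. Among the separating genes, 151 higher and 523 lower ones also had a gap of at least 1. RARRES2 differed by 8.38 and ESM1 by -7.94 after the drug, close to their DMSO values of 8.52 and -7.66. The collagen COL4A1 had a smaller difference, of 2.43 against 3.49, and COL5A2 a larger one, of -6.68 against -5.43. These changes between treatments were not tested. In the single library per line taken 48 h after removal of the drug, both lines of a side lay beyond both others for 230 of the 250 and 706 of the 738 genes, and for 17.7% and 18.8% of all tested genes.

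**Figure D5:**
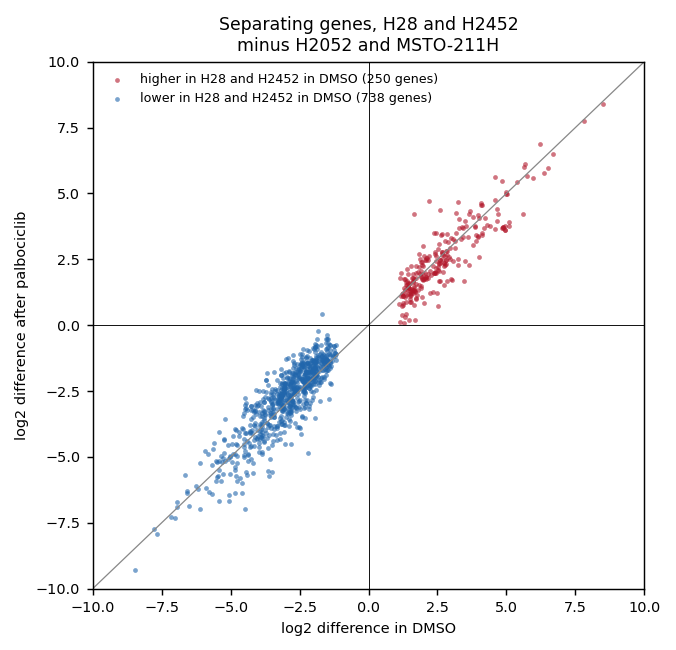
Each point is 1 of the 988 separating genes, with the log2 difference in DMSO on the horizontal axis and that in palbociclib on the vertical axis. The grey line marks equal differences, and all 250 red genes and 737 of the 738 blue genes kept their sign.

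MPP89, an RB1-mutated MPM line, and MeT-5A, a mesothelial line immortalized by SV40, are both listed with wild-type BAP1 and LATS2, and they were not used in choosing the genes. They thus share listed BAP1 status with H2052 and MSTO-211H and listed LATS2 status with H28 and H2452. Each was placed by the mean of its control libraries, 2 DMSO for MPP89, and 1 DMSO and 1 untreated for MeT-5A. Of the 738 lower genes, MPP89 lay on the side of H2052 and MSTO-211H for 307 (41.6%), on the side of H28 and H2452 for 104 (14.1%) and between the sides for 327. MeT-5A did so for 266 (36.0%), 156 (21.1%) and 316. Of the 250 higher genes, MPP89 was with H2052 and MSTO-211H for 71 (28.4%) and with H28 and H2452 for 69 (27.6%), and MeT-5A for 71 and 66 (26.4%). Over all 3196 genes whose line means were lower in H28 and H2452, the shares were 47.6% and 29.3% for MPP89 and 48.2% and 29.6% for MeT-5A. Over the 2723 genes with higher line means, they were 40.9% and 38.3% for MPP89 and 26.4% and 55.1% for MeT-5A.

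Some genes held the division over all 6 lines. In 115 of the 250 higher and 441 of the 738 lower genes, every library of H28 and H2452 lay beyond all 9 control libraries of the 4 lines with wild-type BAP1, and this remained so after palbociclib, with the 4 lines compared, in 102 and 396. Of all tested genes, 1.46% and 4.17% met both conditions. Among the 9 control libraries, 1 of MeT-5A was untreated. The first pair of counts is 46.0% and 59.8% of the separating genes, where 2.01% and 5.6% of all tested genes lay so, and 29.3% and 51.1% of the 1120 higher and 1785 lower genes with no overlap in the 4 lines. RARRES2 was among the 115, at 95 and 65 CP20M in the MPP89 libraries and at 16 and 50 in those of MeT-5A. SFRP1, with 1184 and 3213 CP20M, and COL5A2, with 13420 and 17590, were among the lower ones. ESM1 was not, since it was at 2 and 0 CP20M in the MPP89 libraries and listed at 0 in both of MeT-5A. ABCC3 had a mean of 2576 CP20M in MPP89, and MeT-5A had 217 with DMSO and 1130 untreated, all between the sides. As these lines also differ in RB1, SV40 and origin, BAP1 status and line cannot be told apart here either.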

How the data were processed

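Per the labels and the methods, the authors trimmed reads of directional paired-end libraries with Trimmomatic 0.36, mapped them with STAR 2.5.3 to GRCh38 and counted them per gene with HTSeq 0.9.1. The deposited values are a normalized score, the count per 20000000 reads (CP20M) rounded up to whole numbers, so no count model was used, and read depths are lost in the scaling. A limma 3.58.1 model in R 4.3.3 (eBayes with trend) was fitted to log2(CP20M + 10), with 1 coefficient per line and the same weight for each line. On simulated data with 16288 genes, 100% of 100 genes changed 2-fold were recovered in this comparison, with 1 false call. The simulated libraries differed by noise between libraries, with no differences between the lines of a side. The simulation therefore does not speak of false calls that come from differences between lines. Replicates were separate experiments per the methods.

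Genes named were the 12 protein-coding separating genes with the widest gap in each direction, leaving out those that could reveal sex, up to 5 separating genes of each list, a fixed set around BAP1, and the genes next to the gap limit. Some single genes are left out of the text, 1 of them also out of the NRF2 target list. Others are marked as named after their values were seen. The members and lists were chosen with earlier results of these data known. Positions and gene types are from GENCODE 44, a later annotation of the same build than the authors', which matched 99.1% of the tested genes. The tried alternatives were pseudocounts, filters, scalings, model terms and left-out libraries or lines. The columns hold only samples of this series.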

Additional observations from a re-analysis of the deposited data

Results flagged for a closer look

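In 7 of 135 groups of libraries tried, a single library stood apart from the other libraries of its side, where Dixon's ratio of its gap to the range exceeded the 95% value, which chance alone gives in about 1 of 20 groups, or 6.8 of 135. In H28 and H2452 the ratio was 1.00 for DSC3, 1.00 for TMPRSS15, 0.695 for MYPN and 0.704 for HOXB3. DSC3 and TMPRSS15 were near 0 there, at no more than 6 CP20M, and the ratio for TMPRSS15 rests on H28 replicate 3. In H2052 and MSTO-211H the ratio was 0.807 for AKR1B10, with 67 CP20M in MSTO-211H replicate 1 against 6 or less, 0.736 for ACTR3C and 0.732 for BAP1, where MSTO-211H replicate 2 had 1669 CP20M. The separating calls of DSC3, TMPRSS15, MYPN, HOXB3, AKR1B10 and ACTR3C were made with these libraries included.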

How the results depend on the processing

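With the 4 line means as units, limma called 0 genes higher and 0 lower, which leaves 0 separating genes in each direction, while 1026 genes had an unadjusted p under 0.05. The calls therefore rest on the spread between libraries of a line. With a pseudocount of 50 the separating genes higher in H28 and H2452 fell to 159. Fewer lines leave fewer to be separated. Higher and lower separating genes were 952 and 1684 without H28, 1379 and 1981 without H2452, 913 and 1522 without H2052, and 909 and 1702 without MSTO-211H. Leaving out 1 library at a time gave 2987 to 3263 genes called higher, 4046 to 4164 called lower, 230 to 292 separating higher and 717 to 768 separating lower. All other alternatives left these 4 counts within 1.5 times. The replicate block gave 3191 and 4144 called and 250 and 738 separating. Of 15 correlations between same-numbered libraries of different lines, from -0.05 to 0.36, 12 were over 0.1, against 3 of 30 between other numbers, a hint from the data of an effect that numbers share. The numbers were not taken as pairs because the other 3 were not over 0.1. Of the 11 libraries, 8 correlated best with a library of their own number. Differences changed sign for genes that were not called: BAP1 (0.19) and ASXL2 (0.23) without H2452, HCFC1 (-0.083), YAP1 (0.26) and CALB2 (1.14) without H28, YAP1 (0.34) without H2052, and SLC7A11 without H2452 (-0.44), without H2052 (-1.42) and, over left-out replicates, from -0.21 without H2052 replicate 1 to 0.98 without H2052 replicate 2. The cause was not tested. Values are scaled, so what low read numbers limit is unknown.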
